A study of Ovis aries with 32 samples.

Results

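Perirenal preadipocytes of growth-restricted female fetal sheep were compared before and after their differentiation into adipocytes in culture. The undifferentiated cells form the group FFGR and the differentiated cells the group FFGRD, with 4 libraries of each, which are 8 of the 32 libraries of the series. Both groups share their sex, the perirenal depot, the Columbia-Rambouillet crossbred background, the near-term age of the fetuses and the growth restriction, which the authors produced by keeping the pregnant ewes in a hot environment which limits the growth of the placenta. In the labels the treatment, control or differentiation to mature adipocytes, is the one difference between them. The composition and the length of that treatment are not given in the sources used here, and neither are the passage of the cells and the fetus that each library came from. The replicates of a group are therefore separate samples in the labels, and the p-values measure the spread between these samples.

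RNA was sequenced, and a value is the number of normalized reads that the authors deposited for a transcript, summed here over the transcripts of each gene. A gene was tested when 4 or more of the 8 libraries had a sum of 10 or higher, which left 11599 of the 21271 genes of the table, 1780 of them without a symbol. The test was limma on log2(value + 1), with 4 libraries a group. A gene was called, and is said to have risen or fallen, when its Benjamini-Hochberg adjusted p-value over all 11599 genes was below 0.05 and its fold change above 1.5. A log2 fold change is FFGRD minus FFGR on that log2(value + 1) scale, and the value after ± is its standard error. This scale understates the change of genes with few reads.

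As background, a preadipocyte is a fibroblast-like precursor that makes collagen and other extracellular matrix. Adipogenic hormones, among them glucocorticoids, insulin and agents that raise cyclic AMP, start a cascade in which the transcription factors of the C/EBP family and PPARG switch on the genes of fatty acid uptake, triglyceride synthesis and lipid storage. The perirenal depot of the fetal lamb is known for its brown adipocytes, which burn fat for heat at birth through the uncoupling protein UCP1.

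The depth of the 8 libraries was approximately 14.2M to 16.8M reads, and a value of 10 stood for 7.17 to 13.4 reads. The stages were separated by the second principal component, with 24.3% of the variance, on which FFGR lay between -78.1 and -31.0 and FFGRD between 14.3 and 103.8. The first component, with 54.6%, set FFGR 2, FFGR 3 and FFGRD 3 apart at 152.1, 82.9 and 93.4 from the other 5 libraries at -83.2 to -41.1. In these 3 libraries the values fell with the genomic span of a gene relative to the mean library, with slopes of -0.244, -0.114 and -0.234 on the log2 scale, whereas the other 5 had slopes of 0.0925 to 0.133. The mean slope was -0.0333 ± 0.177 (SD, n = 4) in FFGR and 0.0333 ± 0.178 in FFGRD (exact permutation test, two-sided p = 0.571, where the smallest p that 4 against 4 libraries allow is 0.0286). The counts of calls and the largest shifts of single genes are given without these 3 libraries too.

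**Figure D1:**
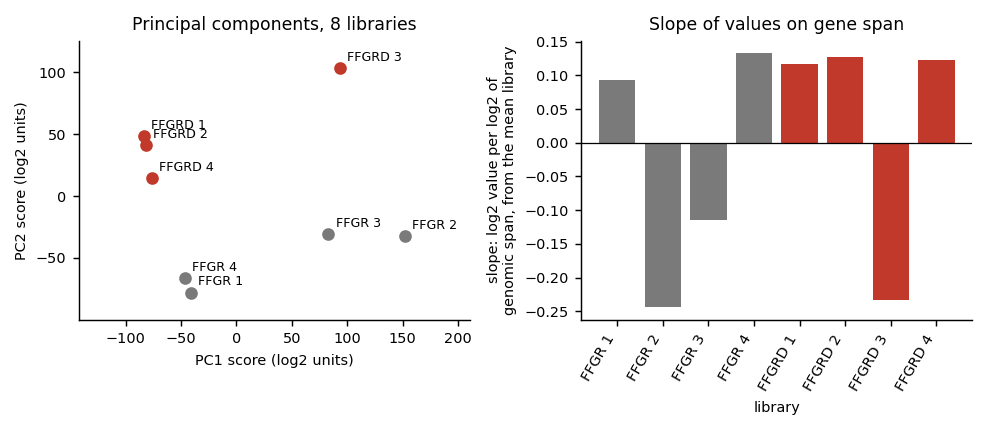
Left, scores of the 8 libraries on the first 2 principal components of log2(value + 1) (log2 units; grey FFGR, red FFGRD); right, for each library, the slope against genomic span of its values relative to the mean library (log2 value per log2 span). FFGR 2, FFGR 3 and FFGRD 3 lie apart on the first component and have negative slopes, and the second component separates the stages.

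Differentiation was accompanied by 310 called genes, 2.67% of those tested. Of these 106 (0.914%) rose and 204 (1.76%) fell. An unadjusted p below 0.05 was found for 1799 of the 11599 genes, where a share of about 0.05 would fall there with no response. The median absolute log2 fold change of the called genes was 3.59, with a range of 1.18 to 9.35. Among them 9 genes rose from at most 3 reads in every FFGR library and 2 fell to at most 3 reads in every FFGRD library, and with these at the floor of 3 reads per library the median was 3.50. Of all calls 31 of the rising genes had 10 or more in every FFGRD library and less in every FFGR library, and 54 of the falling genes the reverse, so that they passed the filter through 1 stage and had to differ in that direction. Among the genes named below these are TNNT1, TCEA3, ABCD2, ABCG1, ITIH5, DGAT2, SPATA18, PLIN4, GLYAT, PPP1R1A, ACSM1, ZBTB16 and KLB. FFGR and FFGRD did not overlap in any of the 310, as against 1312 (11.3%) of all genes tested, 5.01% not overlapping and higher and 6.3% not overlapping and lower. The median log2 fold change of all genes tested was 0.03, and it was 0.18 when each library was scaled to the same sum. Of the calls 34 carry no symbol and are counted but not named.

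The number of calls depended on the libraries. Leaving out 1 library at a time gave 33 to 315 calls, the lowest without FFGRD 2. Without FFGR 2, FFGR 3 and FFGRD 3 together it was 12, 8 higher and 4 lower, although 2601 genes had an unadjusted p below 0.05. Of the genes named below FKBP5, NPR3, SPATA18, ZBTB16 and NEXN were among these 12. In every fit without 1 library 30 of the 310 were called, among them ZBTB16, NPR3, SPATA18, ABCG1, KLF2, CCN2, POSTN, DPT and CRABP2. FFGR and FFGRD did not overlap in any of the 310, so no direction could reverse on leaving libraries out. Without the 3 libraries all 310 had an unadjusted p below 0.05, but they had been selected in a fit that included the remaining libraries. Of the 62 called genes that the rule for named genes picks, 43 had a fold change within 1.5 times of that with all libraries, 15 a smaller and 4 a larger one. The log2 fold change without the 3 libraries was, for smaller changes, 5.84 for ABCG1, 5.64 for ACSM1, 3.01 for ADAMTS4, 4.76 for ALDH1A1, -2.74 for C2, 4.35 for CD36, -4.55 for CPXM2, -4.36 for CRABP2, -5.96 for CTHRC1, 2.74 for GPAM, 5.32 for IGF2, 4.81 for PDE3B, 4.40 for PDK4, 6.46 for PTX3 and -3.46 for SFRP1. For larger changes it was -2.86 for ENG, 9.27 for FABP4, -3.61 for FST and 10.50 for PAPPA2. When the slope on genomic span was a covariate, 1894 genes were called (16.3%), 817 higher (7.04%) and 1077 lower (9.29%). The 310 were all among them. The slope of these fits was taken relative to the mean of all 32 libraries. It was -0.255, -0.139 and -0.256 in FFGR 2, FFGR 3 and FFGRD 3. In the other FFGR and FFGRD libraries it was 0.0402 to 0.0956. It was computed from the same deposited values that were fitted. Counts with this covariate are given below for most lists. The calls of each list stand beside 2.67% of all genes tested, 0.914% higher and 1.76% lower. Those with the covariate stand beside 7.04% higher and 9.29% lower. Counts of positive log2 fold changes stand beside 51.6% of all genes tested. The genes that rose had a median span of 37.3 kb and those that fell 18.2 kb, against 20.6 kb over all genes tested. In 4 equal groups of genes from the shortest to the longest span the median log2 fold changes were -0.22, -0.05, 0.17 and 0.25.

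The markers of the adipocyte that the label names were present after differentiation, at very different levels in the 4 libraries. ADIPOQ, which encodes the hormone adiponectin, had 13.1, 121, 216 and 21 in FFGR 1 to 4 and 9579.9, 1160.4, 8954 and 175 in FFGRD 1 to 4 (normalized reads, as in all values below). FFGRD 1 and 3 lay far above every FFGR library, and FFGRD 4 lay below FFGR 3, so the groups overlapped. The log2 fold change of ADIPOQ was 5.26 ± 1.41 and did not pass (adjusted p = 0.0979), whereas it did with the slope as covariate (adjusted p = 0.0151). LIPE, the hormone-sensitive lipase, had 25.5, 0, 13.2 and 3.03 in FFGR 1 to 4 and 1517, 146, 1498 and 32.2 in FFGRD 1 to 4. Its groups did not overlap and its log2 fold change was 5.70 ± 1.46 (adjusted p = 0.0839). DLK1, a marker of preadipocytes in many models, was at 0 to 1.52 in FFGR and 0 to 2.34 in FFGRD, at most a few reads in any library, so it gave no information on the stage. PDGFRA, a receptor that marks mesenchymal precursors, was read in all libraries, at 1022 to 19665 in FFGR and 935 to 20714 in FFGRD (adjusted p = 0.827).

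Other cell types were checked by lists of markers. The summed endothelial markers were 64.2 to 201 in FFGR and 10.7 to 61.1 in FFGRD, with CLDN5 and ROBO4 at 0 in all 8 libraries, and 1 of 12 could be tested. That gene was ERG, an endothelial transcription factor, at 44.8 to 96 in FFGR and 0 to 14.9 in FFGRD (log2 fold change -3.93 ± 0.85, adjusted p = 0.0506). The macrophage and leukocyte markers summed to 121 to 1334 in FFGR and 169 to 498 in FFGRD, and none of the 4 tested was called. The mesothelial sums were 44.1 to 604 and 15.7 to 144 with CALB2 at 0, the Schwann and neural sums 541 to 1186 and 997 to 3378 with CDH19 at 0, and the bone and cartilage sums 66.9 to 1026 and 111 to 544 with BGLAP at 0. None of the 3, 2 and 3 genes tested in these lists was called. Of the osteoblast factor RUNX2 the log2 fold change was 0.64 ± 0.95, at an adjusted p of 0.808, and of CD68, a lysosomal protein of macrophages, -1.84 ± 0.59, at 0.164. The skeletal muscle markers summed to 191 to 1562 in FFGR and 1.63 to 58.8 in FFGRD. In FFGR these sums were mostly the single gene DES, desmin, since TNNT1 reached at most 43.6 and no untested member more than 11.8. DES and TNNT1 were the 2 genes tested, and DES was not called. With the slope as covariate both were called lower. MYOD1, MYOG, PAX7 and CKM of that list were at 0 throughout, and TNNT1, slow skeletal troponin T, which passed the filter through FFGR alone, went from 16.2 to 43.6 in FFGR to levels of 1.57 to 7.09 in FFGRD (log2 fold change -2.77 ± 0.59, adjusted p = 0.0479). The erythroid markers reached at most 2.69 in any library. The part of other cell types in the results was not tested, and in these bulk samples fewer cells of a type and less RNA per cell cannot be told apart.

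Among the transcription factors of adipogenesis CEBPA and ZBTB16 rose and KLF2 fell, 3 of the 17 tested. CEBPA, which encodes C/EBP alpha, the factor that maintains the adipocyte programme, had 11.2, 26.7, 44.6 and 51.5 in FFGR 1 to 4 and 770.0, 296, 2024 and 149 in FFGRD 1 to 4. All FFGRD libraries lay above all FFGR libraries, with FFGRD 3 highest and FFGRD 4 lowest (log2 fold change 4.10 ± 0.83, adjusted p = 0.0417). ZBTB16, a zinc finger repressor induced by glucocorticoids, showed the largest fitted change of all called genes, a size that depends on the pseudocount. It lies on chromosome 15, 27130991 to 27329387 (Oar_rambouillet_v1.0) and had 5.08, 0, 0 and 0 in FFGR 1 to 4 and 1943, 2420.4, 157 and 1487 in FFGRD 1 to 4. In 3 FFGR libraries it was listed at 0, and FFGRD 3 was by far the lowest of the differentiated libraries (log2 fold change 9.35 ± 0.99, adjusted p = 0.00864). KLF2, a factor that represses PPARG, had 126, 71.3, 129 and 115 in FFGR 1 to 4 and 10.3, 6.25, 9.41 and 7.5 in FFGRD 1 to 4 and thus a tight range within either stage (log2 fold change -3.55 ± 0.39, adjusted p = 0.00864). PPARG itself, the master regulator of adipogenesis, had 137, 187, 610.1 and 189 in FFGR 1 to 4 and 1274, 424, 2012 and 266 in FFGRD 1 to 4. FFGRD 2 and FFGRD 4 lay below FFGR 3, and its log2 fold change of 1.65 ± 0.73 was not called (adjusted p = 0.324). These counts stand beside the 2.67% of all genes. The median log2 fold change over the 17 was 1.46, with 15 positive, and with the slope as covariate 8 were called higher and 1 lower.

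**Figure D2:**
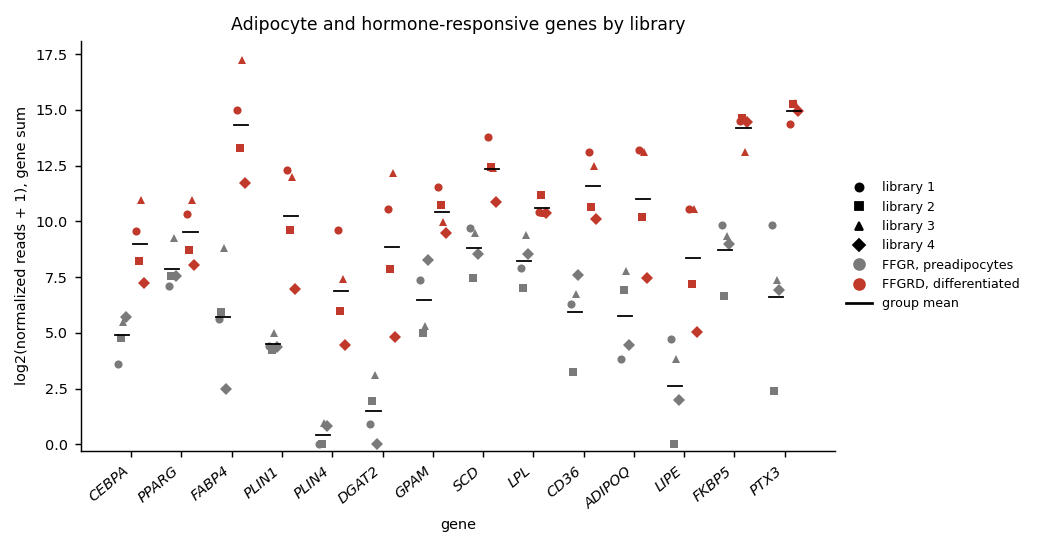
Values of 14 adipocyte and hormone-responsive genes in each library (y axis, log2(normalized reads + 1); grey FFGR, red FFGRD; symbols mark libraries 1 to 4 and the bar the group mean). FKBP5 and PTX3 are close together in the 4 FFGRD libraries, whereas ADIPOQ, DGAT2, LIPE and FABP4 spread widely, with FFGRD 4 lowest.

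FABP4, CD36, LPL and ABCD2 rose among the genes of fatty acid uptake and binding. FABP4, the fatty acid carrier of the adipocyte cytoplasm on chromosome 9, 62825357 to 62830354, had 48.8, 60.9, 445 and 4.65 in FFGR 1 to 4 and 32204, 10139.5, 154953 and 3366 in FFGRD 1 to 4. Each FFGRD library lay above each FFGR library, FFGRD 3 by far the highest and FFGRD 4 the lowest (log2 fold change 8.59 ± 1.48, adjusted p = 0.0282). CD36, a fatty acid transporter of the cell surface, had 76.7, 8.38, 106 and 192 in FFGR 1 to 4 and 8951, 1589, 5819 and 1104 in FFGRD 1 to 4 with no overlap (log2 fold change 5.63 ± 1.02, adjusted p = 0.0312). LPL, the lipase that frees fatty acids from lipoproteins, rose less but more evenly, from 243, 129, 664 and 375 in FFGR to 1390.2, 2362, 1327 and 1332 in FFGRD (log2 fold change 2.38 ± 0.51, adjusted p = 0.0482). ABCD2, a peroxisomal importer of fatty acids, was at or below 3 reads in all FFGR libraries and at 99.6, 122, 32.8 and 12.7 in FFGRD, at least 12.5-fold higher against a floor of 3 reads per library, as for each such bound (adjusted p = 0.0168). ACSL5, an enzyme that activates fatty acids, went the other way and fell from 473, 781, 967 and 863 to 59.3, 73.9, 152 and 124 (log2 fold change -2.95 ± 0.40, adjusted p = 0.0141). ACSL1, the main activating enzyme of adipocytes, had 314, 298, 373 and 259 in FFGR 1 to 4 and 14066, 2710.2, 17468 and 650.1 in FFGRD 1 to 4 without overlap and was not called (log2 fold change 3.88 ± 0.96, adjusted p = 0.0775). Of the 14 genes tested 4 rose and 1 fell, with a median log2 fold change of 0.12, and 6 were called higher and 2 lower with the slope as covariate.

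Of triglyceride synthesis DGAT2 and GPAM rose, the former with the same order of the differentiated libraries as FABP4. DGAT2, the enzyme of the last step, lies on chromosome 15, 58341633 to 58359820 and had 0.859, 2.81, 7.53 and 0 in FFGR 1 to 4 and 1512, 235, 4554 and 27.1 in FFGRD 1 to 4. FFGRD 3 and 1 were high, FFGRD 4 was lowest and still above all FFGR libraries (log2 fold change 7.37 ± 1.49, adjusted p = 0.0417). GPAM, the mitochondrial acyltransferase of the first step, had 167, 30.5, 38.5 and 313 in FFGR 1 to 4 and 2961, 1720.4, 999 and 709 in FFGRD 1 to 4 and also did not overlap (log2 fold change 3.94 ± 0.80, adjusted p = 0.0418). These were the 2 called of the 13 tested, of which 11 had a positive and none a called negative log2 fold change, and 5 were called higher with the slope as covariate. Of the lipid droplet proteins PLIN1 and PLIN4 rose, 2 of the 12 tested, and 2 were called higher and 1 lower with the slope as covariate. PLIN1, which coats the droplet and guards it from lipases, had 20.4, 18.1, 31.2 and 19.8 in FFGR 1 to 4 and 5042, 777, 4085 and 126 in FFGRD 1 to 4 (log2 fold change 5.71 ± 1.07, adjusted p = 0.0337). PLIN4, a coat protein of nascent droplets, was at 0 or 1 read in FFGR and at 784, 62.9, 169.7 and 20.9 in FFGRD, at least 30-fold higher (adjusted p = 0.0229).

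Fatty acid synthesis and desaturation had 1 call, SCD, among the 14 tested, and 5 with the slope as covariate. SCD, the stearoyl-CoA desaturase, had 828, 176, 706 and 375 in FFGR 1 to 4 and 14040.4, 5478, 5385 and 1894 in FFGRD 1 to 4 with no overlap (log2 fold change 3.57 ± 0.69, adjusted p = 0.0373). FASN, the fatty acid synthase, also did not overlap, with 575, 444, 1129 and 1028 in FFGR 1 to 4 and 14756, 5069.7, 2857 and 1602 in FFGRD 1 to 4, but was not called (log2 fold change 2.54 ± 0.67, adjusted p = 0.0938). Of the 12 genes of lipolysis and its control, PDE3B and NPR3 rose, and 3 were called higher with the slope as covariate. PDE3B, the phosphodiesterase through which insulin restrains lipolysis, had 76.2, 11.1, 63.9 and 65.7 in FFGR 1 to 4 and 7226, 1346, 2304 and 829 in FFGRD 1 to 4 (log2 fold change 5.53 ± 0.80, adjusted p = 0.0168). NPR3, the clearance receptor of natriuretic peptides, rose from 11, 4.17, 0.937 and 4.54 to 1895, 2470.0, 164 and 656 (log2 fold change 7.38 ± 0.91, adjusted p = 0.0104). PNPLA2, the first lipase of triglyceride breakdown, overlapped between the stages with 316, 149, 144 and 121 in FFGR 1 to 4 and 1959.6, 629.6, 4835 and 195 in FFGRD 1 to 4 (adjusted p = 0.196). The cyclic AMP phosphodiesterase PDE7B rose as well (log2 fold change 3.66 ± 0.57, adjusted p = 0.021). PDE4D, of the same family, had 281, 0, 8.45 and 54.3 in FFGR 1 to 4 and 1174, 2519, 177 and 2391 in FFGRD 1 to 4 and was not called (adjusted p = 0.119). KLB, the co-receptor that lets FGF receptors bind the hormone FGF21, was near 0 in FFGR with at most 0.939, and reached 1165, 231, 469 and 34.3 in FFGRD, at least 66.4-fold higher (adjusted p = 0.0118).

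The lipid genes differed in level among the 4 differentiated libraries, and FFGRD 4 was most often the lowest. Over the 11 called rising genes of the 5 lipid lists the highest FFGRD library exceeded the lowest by a median factor of 9.62, against 3.67 over all 106 rising genes, 3.07 over the 5 rising genes of the glucocorticoid list described below and 3.19 over all genes tested. FFGRD 4 was the lowest of the differentiated libraries in 9 of these 11, in 50 of the 106 rising genes and in 17.6% of all genes tested. Over all 65 tested genes of the lists, called or not, FFGRD 4 was lowest in 34, and FFGRD 1 and FFGRD 3 were highest in 28 each (43.1%), as against 23.1% and 39.9% of all genes tested. The factor was 168 for DGAT2, 54.8 for ADIPOQ, 47.2 for LIPE, 46.0 for FABP4 and 40.1 for PLIN1. It was 2.84 for FKBP5 and 1.91 for PTX3. These factors are descriptions of 4 libraries and were not tested.

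Several genes of the mature adipocyte did not reach the filter, because fewer than 4 of the 8 libraries held 10 normalized reads. THRSP, a regulator of lipogenesis, had 0.915, 0, 2.94 and 0 in FFGR 1 to 4 and 507, 48.3, 5754 and 7.7 in FFGRD 1 to 4. SLC2A4, the insulin-responsive glucose transporter, was listed at 0 in FFGR and had 65.2, 3.91, 85.8 and 0.749 in FFGRD. TRARG1, a regulator of its traffic, was likewise listed at 0 in FFGR and had 204, 19.3, 54.4 and 7.69 in FFGRD. For all 3 genes FFGRD 1 and FFGRD 3 were highest and FFGRD 4 lowest. CIDEC, which fuses lipid droplets, had 1.72, 8.42, 18.9 and 1.53 in FFGR 1 to 4 and 32, 9.41, 409 and 5.29 in FFGRD 1 to 4, and ADRB3, the beta-3 adrenergic receptor of fat cells, 2.55, 0, 2.82 and 0.757 in FFGR 1 to 4 and 111, 6.22, 411 and 0 in FFGRD 1 to 4. LEP, the leptin gene, was not found in the table under that symbol, and CFD, adipsin, was at 0.755 to 4.73 in FFGRD and 1.41 to 6.19 in FFGR.

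UCP1, ELOVL3 and CIDEA were highest in FFGRD 3 and FFGRD 1 among the differentiated libraries. UCP1, the uncoupling protein, had 0, 0, 0.943 and 0 in FFGR 1 to 4 and 66.7, 0.78, 680.0 and 0.749 in FFGRD 1 to 4. It was thus read in FFGRD 1 and 3 and was at 1 read in FFGRD 2 and 4. ELOVL3, a fatty acid elongase of brown fat, had 0, 0, 0 and 0.77 in FFGR 1 to 4 and 41.8, 3.15, 374 and 0.755 in FFGRD 1 to 4. CIDEA, a lipid droplet protein that marks brown adipocytes, had 50.4, 230.5, 92.3 and 54 in FFGR 1 to 4 and 143, 18.2, 729.8 and 10.6 in FFGRD 1 to 4 and its groups overlapped (log2 fold change -0.35 ± 1.25, adjusted p = 0.925). PPARGC1A, the coactivator of mitochondrial biogenesis, had 6.79, 0, 3.76 and 25.2 in FFGR 1 to 4 and 83.1, 86.2, 3.52 and 91.1 in FFGRD 1 to 4 (adjusted p = 0.317). It was lowest in FFGRD 3, the library with the most UCP1. PRDM16, a determinant of brown fat that did not reach the filter, was at 0, 9.72, 0.94 and 12.8 in FFGR 1 to 4 and 1.58, 0.777, 0 and 6.71 in FFGRD 1 to 4. None of the 7 genes tested in this list was called, and 1 was called higher with the slope as covariate. ZIC1, TNFRSF9 and UCP3 were listed at 0 in all 8 libraries.

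Of the genes known to be induced by glucocorticoids FKBP5, ZBTB16, PDK4, MAOA and GLUL rose. FKBP5, a chaperone of the glucocorticoid receptor, had 906, 101, 654 and 502 in FFGR 1 to 4 and 23449, 25517, 8999 and 22602 in FFGRD 1 to 4. FFGRD 3 was lowest among the differentiated libraries and still far above the highest FFGR library, FFGR 1 (log2 fold change 5.48 ± 0.70, adjusted p = 0.0119). MAOA, a monoamine oxidase, rose from 148 to 397 in FFGR to levels of 1132 to 1625 in FFGRD (log2 fold change 2.53 ± 0.36, adjusted p = 0.0163), and GLUL, glutamine synthetase, from 378 to 794 in FFGR to levels of 1836 to 5640.2 in FFGRD (log2 fold change 2.55 ± 0.47, adjusted p = 0.0323). PDK4, the kinase that spares glucose by blocking pyruvate dehydrogenase, had 41.8, 0, 1.88 and 41.8 in FFGR 1 to 4 and 2357, 457, 329 and 674 in FFGRD 1 to 4 (log2 fold change 6.36 ± 1.29, adjusted p = 0.0417). With ZBTB16 these were 5 of the 18 tested, none was called lower, and 9 were called higher with the slope as covariate. PDK4 was also the called one of 19 tested genes of fatty acid oxidation, against 2.67% of all genes. Of the 19, 17 had a positive log2 fold change, against 51.6% of all genes. With the slope as covariate 8 were called higher. CPT1A, the carnitine transferase that admits fatty acids to mitochondria, had 227, 97.4, 111 and 386 in FFGR 1 to 4 and 1738, 768, 328 and 671 in FFGRD 1 to 4 and was not called (adjusted p = 0.129), but was with that covariate (adjusted p = 0.0122). None of the 20 genes of the respiratory chain and citrate cycle was called, with a median log2 fold change of -0.13, and 3 were called higher with the slope as covariate. Citrate synthase CS was 932 to 1223 in FFGR and 1092 to 1364 in FFGRD (adjusted p = 0.842), and IDH3A of the same cycle 540.0 to 665 and 897 to 1139 without overlap (log2 fold change 0.70 ± 0.25, adjusted p = 0.218, and 0.0203 with the covariate).

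IGF2 and its binding protein IGFBP6 moved in opposite directions. IGF2, the fetal growth factor, had 4.29, 0, 21.7 and 81.8 in FFGR 1 to 4 and 644, 2152, 637 and 424 in FFGRD 1 to 4 and rose (log2 fold change 6.29 ± 1.25, adjusted p = 0.0396). IGFBP6, a binding protein with a preference for IGF2, had 7915, 15991, 19424 and 11222 in FFGR 1 to 4 and 176, 107, 863 and 704 in FFGRD 1 to 4 and fell (log2 fold change -5.29 ± 0.70, adjusted p = 0.013). PAPPA2, a protease that cleaves IGF-binding proteins, rose from 18.6, 4.16, 4.69 and 0 to 2821, 8267, 103 and 11251 (log2 fold change 8.87 ± 1.51, adjusted p = 0.0275). FFGRD 3 was by far the lowest of the differentiated libraries for PAPPA2, at 103 against 2821 to 11251 in the others. The insulin receptor INSR had 388, 29.2, 91.1 and 279 in FFGR 1 to 4 and 1155, 811, 84.2 and 452 in FFGRD 1 to 4 and its substrate IRS1 775, 41.7, 113 and 424 in FFGR 1 to 4 and 545, 822, 102 and 575 in FFGRD 1 to 4. Neither was called (adjusted p = 0.495 and 0.722), and in both FFGR 2 and FFGRD 3 were low. In the list of insulin and IGF signalling 17 genes were tested, and IGF2 and IGFBP6 were its calls, against 5 higher and 1 lower with the slope as covariate.

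POSTN, TGFBI and CCN2 fell among the matricellular proteins, the matrix proteins that signal to cells. POSTN, periostin, had 28741, 16333, 23779.5 and 21583 in FFGR 1 to 4 and 1582, 310.3, 554 and 1619.7 in FFGRD 1 to 4 (log2 fold change -4.76 ± 0.57, adjusted p = 0.00884). TGFBI, a matrix protein induced by TGF-beta, had 68398, 34155, 7414 and 6481 in FFGR 1 to 4 and 65.6, 257, 229 and 910.4 in FFGRD 1 to 4 (log2 fold change -6.22 ± 0.98, adjusted p = 0.0218). CCN2, connective tissue growth factor, on chromosome 8, 63376919 to 63379291, had 5729, 5630.1, 4129 and 6789 in FFGR 1 to 4 and 406, 847, 604 and 779.5 in FFGRD 1 to 4, with an even fall in all libraries (log2 fold change -3.11 ± 0.34, adjusted p = 0.00864). These were 3 of the 22 tested of their list, none was called higher, and 7 were called lower with the slope as covariate. FN1, fibronectin, had 247179, 12695, 16838 and 107204 in FFGR 1 to 4 and 29324, 194438, 7137 and 157940.0 in FFGRD 1 to 4 and overlapped between the stages (log2 fold change 0.05 ± 1.33, adjusted p = 0.991).

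None of the 24 fibrillar collagen genes and modifying enzymes was called, and 1 was called higher and 4 lower with the slope as covariate. COL1A1, a chain of collagen I, was 56736 to 323394 in FFGR and 26849.5 to 304849 in FFGRD (log2 fold change -0.17 ± 0.95), and COL1A2 77908 to 324731 and 46496 to 368560.0 (0.04 ± 0.85). The lowest values of both genes in either stage were in FFGR 2, FFGR 3 and FFGRD 3. None of the 17 basement membrane genes was called either, with a median log2 fold change of 1.68. COL4A1, a chain of collagen IV, had 5638, 1162, 7175 and 19784 in FFGR 1 to 4 and 125705, 85015, 13472 and 62682 in FFGRD 1 to 4 (log2 fold change 3.31 ± 0.97, adjusted p = 0.128). COL4A2 had 681 to 10166 in FFGR and 6519 to 60367 in FFGRD (adjusted p = 0.141). Both were called higher with the slope as covariate (log2 fold change 2.83, adjusted p = 0.00824, and 2.59, 0.00941), as were 5 of the 17 in all, against 1 lower.

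Of 17 matrix proteases and inhibitors ADAMTS4 rose and TIMP2, PLAU and PRSS35 fell. ADAMTS4, an aggrecanase, had 98.4, 15.3, 20.7 and 43.1 in FFGR 1 to 4 and 614, 581, 276 and 423 in FFGRD 1 to 4 (log2 fold change 3.68 ± 0.59, adjusted p = 0.0229). PLAU, urokinase, went from 713, 939, 1009 and 534 to 99.7, 126, 225 and 61.3 (log2 fold change -2.74 ± 0.44, adjusted p = 0.0229). TIMP2, an inhibitor of metalloproteinases, fell from 7222 to 14100.0 in FFGR to levels of 1649.7 to 3881 in FFGRD (log2 fold change -1.98 ± 0.41, adjusted p = 0.0426), and PRSS35, a secreted serine protease, from 1789 to 6913 in FFGR to levels of 7.08 to 444 in FFGRD (log2 fold change -6.06 ± 1.10, adjusted p = 0.0307). ADAMTS1 was not called (log2 fold change 1.04 ± 0.87, adjusted p = 0.665).

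**Figure D3:**
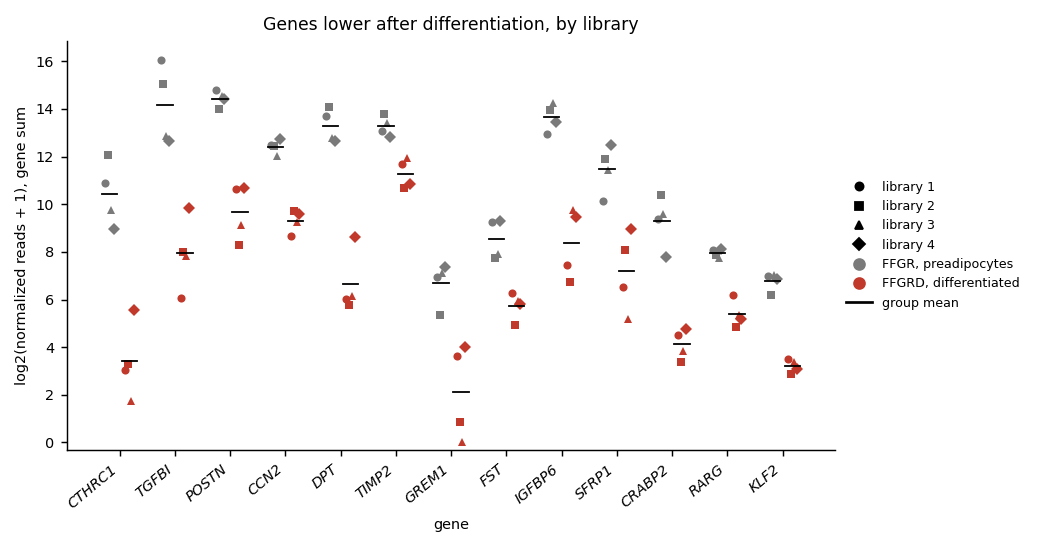
Values of 13 genes that were called lower after differentiation, in each library (y axis, log2(normalized reads + 1); grey FFGR, red FFGRD; symbols mark libraries 1 to 4 and the bar the group mean). The 4 FFGR libraries lie above the 4 FFGRD libraries for every gene shown.

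CTHRC1 and DPT had the largest falls of the genes with a symbol. CTHRC1, a secreted protein of activated fibroblasts on chromosome 9, 81938772 to 81954142, had 1883, 4327, 873 and 498 in FFGR 1 to 4 and 7.3, 8.71, 2.38 and 46.3 in FFGRD 1 to 4 (log2 fold change -7.01 ± 0.91, adjusted p = 0.0121). DPT, dermatopontin, a matrix protein of adventitial fibroblasts, had 13254, 17329, 6955 and 6463 in FFGR 1 to 4 and 63.6, 53.9, 69.4 and 394 in FFGRD 1 to 4, and the highest differentiated library, FFGRD 4, was below the lowest FFGR library (log2 fold change -6.66 ± 0.67, adjusted p = 0.00864). ENG, endoglin, a TGF-beta co-receptor of mesenchymal cells, fell from 267 to 885 in FFGR to levels of 82.9 to 172 in FFGRD (log2 fold change -2.26 ± 0.45, adjusted p = 0.0394). Together with DPT it made 2 of the 17 tested precursor markers, none of which was called higher, and the median log2 fold change of that list was -0.02, with 2 called higher and 3 lower when the slope was a covariate. PDGFRB was not called (log2 fold change -0.58 ± 0.76).

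JPH2 and RRAD, genes of contractile cells, were among the 12 largest falls. JPH2, junctophilin of the sarcoplasmic reticulum, had 324, 471, 370.4 and 467 in FFGR 1 to 4 and 2.37, 6.22, 3.51 and 25.4 in FFGRD 1 to 4 (log2 fold change -5.78 ± 0.63, adjusted p = 0.00864). RRAD, a small GTPase that inhibits calcium channels, had 807, 719, 311 and 346 in FFGR 1 to 4 and 4.84, 3.94, 5.92 and 34 in FFGRD 1 to 4 (log2 fold change -5.78 ± 0.68, adjusted p = 0.00869). CNGA3, a cyclic nucleotide-gated channel, fell from 293 to 754 in FFGR to levels of 2.35 to 32.2 in FFGRD (log2 fold change -6.00 ± 0.73, adjusted p = 0.00922). The others were CPXM2, a carboxypeptidase-like protein (-5.89), TCEA3, a transcription elongation factor (-5.58), FEZ1, a kinesin adaptor of axons (-5.40), and EPB41L3, a membrane skeleton protein (-5.24), all log2 fold changes. FFGRD 4 held the highest of the 4 differentiated values for CTHRC1, DPT, JPH2, RRAD, CNGA3, FEZ1 and EPB41L3. Over all 204 falling genes FFGRD 4 was highest in 92 (45.1%), as against 20.7% of all genes tested.

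Actin genes had mostly negative log2 fold changes and 1 call. PLS3, an actin bundler, had 4024, 8246, 10197 and 10242 in FFGR 1 to 4 and 1469, 1454, 1273 and 1357 in FFGRD 1 to 4 and a very even level after differentiation (log2 fold change -2.47 ± 0.37, adjusted p = 0.0171). It was the 1 called of 25 tested, against 2.67% of all genes. Of the 25, 5 had a positive log2 fold change, against 51.6% of all genes. With the slope as covariate 10 were called lower. ACTA2, smooth muscle actin, had 7512, 49014, 22456 and 12819.6 in FFGR 1 to 4 and 499.8, 5384, 14008 and 2603 in FFGRD 1 to 4 (adjusted p = 0.273), and TAGLN, transgelin, 8411, 42211, 15892 and 5664 in FFGR 1 to 4 and 886, 6155, 22895 and 2303 in FFGRD 1 to 4 (adjusted p = 0.51). AJUBA, a LIM protein and target of YAP, fell (log2 fold change -2.73 ± 0.54, adjusted p = 0.0388), as did CCN2 of the same list of 17, of which 6 were called lower with the slope as covariate. CCN1, another YAP target, had 2838, 1054, 1482 and 1954 in FFGR 1 to 4 and 1656, 6554, 3117 and 3107 in FFGRD 1 to 4 and was not called (adjusted p = 0.446), nor was ANKRD1 with 2239, 556, 1186 and 663 in FFGR 1 to 4 and 79.4, 230.2, 316 and 238 in FFGRD 1 to 4 (adjusted p = 0.0732).

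The secreted inhibitors GREM1, FST and SFRP1 fell. GREM1, an antagonist of BMPs, had 124, 40.3, 138 and 164 in FFGR 1 to 4 and 11.4, 0.823, 0 and 15 in FFGRD 1 to 4 (log2 fold change -4.58 ± 0.98, adjusted p = 0.0491). FST, follistatin, which binds activin, had 613, 215, 238 and 629 in FFGR 1 to 4 and 77, 29.1, 60.2 and 55.7 in FFGRD 1 to 4 (log2 fold change -2.81 ± 0.50, adjusted p = 0.03). These were the 2 calls among 26 tested genes of TGF-beta, BMP and activin signalling, where TGFB1 (log2 fold change -1.46 ± 0.61) and TGFB2 (0.92 ± 1.07) were not called. With the slope as covariate 4 were called higher and 4 lower. SFRP1, a decoy of Wnt ligands, had 1135, 3819, 2766 and 5713 in FFGR 1 to 4 and 92, 271, 35.6 and 491 in FFGRD 1 to 4 (log2 fold change -4.30 ± 0.84, adjusted p = 0.0378). FZD4, a Wnt receptor, rose from 53.6, 25.1, 122 and 349 to 5458, 4617, 2067 and 1929 (log2 fold change 5.16 ± 0.78, adjusted p = 0.0178). Of the 19 tested Wnt genes these were the 2 calls, against 3 higher and 3 lower with the slope as covariate. For CTNNB1, beta-catenin, the log2 value was 0.13 ± 0.49 and not called.

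Of the retinoid genes ALDH1A1 rose and CRABP2 and RARG fell. ALDH1A1, a dehydrogenase that makes retinoic acid, had 14.5, 2.78, 48 and 97.3 in FFGR 1 to 4 and 2109, 1032, 5954 and 536 in FFGRD 1 to 4 and rose (log2 fold change 6.14 ± 1.09, adjusted p = 0.03). CRABP2, which carries retinoic acid inside the cell, had 656, 1331, 759 and 222 in FFGR 1 to 4 and 22, 9.52, 13.1 and 25.8 in FFGRD 1 to 4 and fell (log2 fold change -5.16 ± 0.59, adjusted p = 0.00864). RARG, a retinoic acid receptor, fell from 272, 234, 212 and 280.1 to 72.5, 28.2, 40 and 35.3 (log2 fold change -2.56 ± 0.37, adjusted p = 0.0168). The groups did not overlap for any of these 3 genes. Detoxification genes included MAOA as the called one of 20, with 5 called higher under the covariate, and GPX3, the secreted glutathione peroxidase, was 2039 to 23125 and 14815 to 45553 (adjusted p = 0.523), with GPX1 at 305 to 2356 and 189.6 to 931 (adjusted p = 0.515).

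PTX3 rose and the complement gene C2 fell. PTX3, a secreted pattern recognition protein, had 926, 4.21, 164 and 121 in FFGR 1 to 4 and 21177, 39239, 40511 and 31536 in FFGRD 1 to 4 (log2 fold change 8.34 ± 1.33, adjusted p = 0.0229). The differentiated libraries lie close together and the undifferentiated ones range widely, with FFGR 1 highest. Of 14 tested cytokine and NF-kappaB genes PTX3 was the called one, and the median log2 fold change of that list was -0.35, with 1 called higher and 1 lower under the covariate. C2, a complement protease precursor, fell from 144, 472, 1026 and 774 to 75.1, 28.8, 37.5 and 54.6 (log2 fold change -3.36 ± 0.63, adjusted p = 0.0337), 1 of 7 complement factors tested. C3, the central complement protein, had 23204, 7564, 13275 and 21372 in FFGR 1 to 4 and 792, 3693, 443 and 4133 in FFGRD 1 to 4 without overlap and was not called (adjusted p = 0.0684), but 5 of the 7 were called lower with the slope as covariate. None of the 10 interferon response genes was called, 2 were called lower with the covariate, and MX1 had a log2 fold change of -0.70 ± 0.72.

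ABCG1, PFKFB4 and MCM2 were single calls of their lists. With 2.67% of all genes tested called, 1 call does not set such a list apart. ABCG1, which exports cholesterol, had 4.25, 0, 1.88 and 6.81 in FFGR 1 to 4 and 707, 332, 246 and 207 in FFGRD 1 to 4 and rose (log2 fold change 6.65 ± 0.71, adjusted p = 0.00864). It was the called one of 22 genes of cholesterol handling, and the synthesis enzyme HMGCS1 (log2 fold change -0.08 ± 0.59) was not called, and 2 were called higher with the covariate. PFKFB4, a regulator of glycolysis, rose from 103, 61.6, 77.4 and 72.4 to 300.1, 622, 427 and 307 (log2 fold change 2.34 ± 0.35, adjusted p = 0.0171), the 1 call of 21 tested, against 1 higher and 1 lower with the covariate. SLC2A1 and SLC2A3, glucose transporters, were not called (log2 fold changes 0.04 ± 0.94 and -0.92 ± 1.41), and SLC2A3 had 73271 in FFGR 1 against 482 to 1624 in the other FFGR libraries. MCM2, a subunit of the replicative helicase, had 456, 381, 495 and 353 in FFGR 1 to 4 and 866, 1188, 1179.8 and 1610.3 in FFGRD 1 to 4 and rose (log2 fold change 1.5 ± 0.29, adjusted p = 0.0381). It was the call among 26 genes of the cell cycle. Of these 21 had a positive log2 fold change, against 51.6% of all genes tested. With the slope as covariate 12 were called higher and 1 lower. TOP2A, the topoisomerase of dividing cells, had 829.8, 81.9, 231 and 422 in FFGR 1 to 4 and 1513, 3685, 449 and 4474 in FFGRD 1 to 4 (adjusted p = 0.179). None of the 11 inhibitors of the ERK pathway was called, 1 was called higher with the covariate, with SPRED1 at -0.09 ± 1.16.

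**Figure D4:**
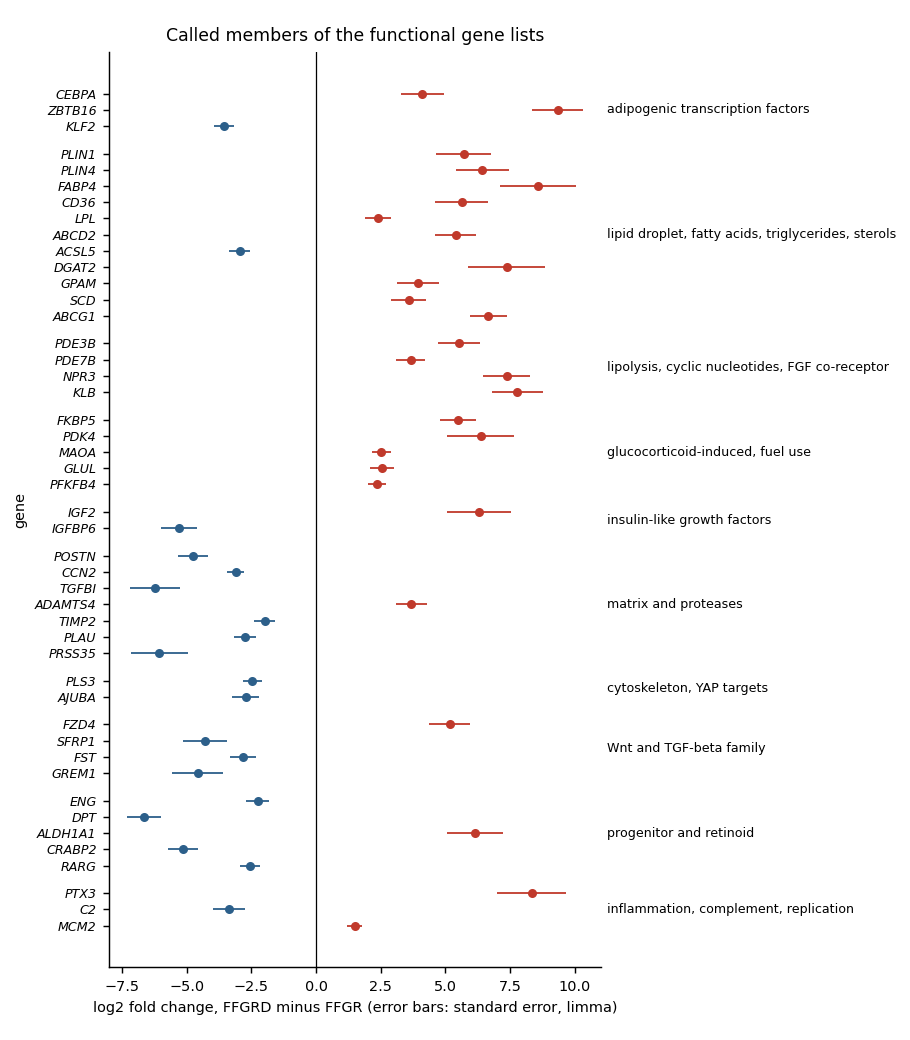
Log2 fold change (x axis, FFGRD minus FFGR on log2(value + 1); bars are the standard error of limma) of called members of the functional gene lists, grouped by role. Rises are red and falls blue, and values of genes near 0 in FFGR, such as ABCD2, KLB, PLIN4 and ZBTB16, depend on the pseudocount (9.35 for ZBTB16, and 11.90 with a pseudocount of 0.1). The largest fall is that of DPT at -6.66.

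Among the 12 largest rises several belong to no list, and ITIH5, PPP1R1A, GLYAT, ACSM1 and SPATA18 passed the filter through FFGRD alone. ITIH5, a hyaluronan-binding protein, had 2.53, 0, 0.938 and 9.8 in FFGR 1 to 4 and 74, 5523, 181 and 2592 in FFGRD 1 to 4 (log2 fold change 7.83 ± 1.42, adjusted p = 0.0307), with FFGRD 2 and 4 high, the libraries in which FABP4 and DGAT2 were lower. PPP1R1A, an inhibitor of protein phosphatase 1, was at or below 3 reads in FFGR and 35, 1264, 1886 and 355 in FFGRD, at least 107-fold higher (adjusted p = 0.0171). GLYAT and ACSM1, mitochondrial enzymes that conjugate and activate acyl groups, had the library order of DGAT2 and belong to families of similar sequence, among whose members reads could have been divided. GLYAT had 0.858, 0, 7.56 and 0 in FFGR 1 to 4 and 863, 86.9, 2596 and 33.8 in FFGRD 1 to 4 (log2 fold change 7.17 ± 1.39, adjusted p = 0.0373), and ACSM1 went from at most 0.759 in FFGR to 159, 130.1, 1813 and 12.7, at least 38.8-fold higher (adjusted p = 0.0308). SPATA18, a mediator of mitochondrial quality control, had 0.848, 0, 2.82 and 6.04 in FFGR 1 to 4 and 389, 526, 97.2 and 638 in FFGRD 1 to 4 (log2 fold change 6.99 ± 0.79, adjusted p = 0.00864).

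The study lists 21 genes shared with differentiation in mouse and human. The authors chose them on the male and female control libraries of this series and on published mouse and human data. They state that adding FFGR to that comparison, by their own test, gave the same genes. No FFGR or FFGRD library entered the first choice. The direction of the 21 genes is described here and was not used as a test. Of the 19 that could be tested 10 rose and 2 fell (13 and 5 with the slope as covariate), 5 of the 19 having passed the filter through 1 stage only. The risers were FABP4, KLB, DGAT2, PLIN4, ZBTB16, PLIN1, ABCD2, PDK4, CEBPA and FKBP5, and the fallers PLS3 and POSTN. The other 7 were not called. Besides ADIPOQ, LIPE and ACSL1 these were NEXN, an actin-binding protein (-2.25 ± 0.81, adjusted p = 0.213), TPM2, tropomyosin 2 (-2.21 ± 0.81, adjusted p = 0.221), LMO7, a LIM domain protein (-1.92 ± 0.72, adjusted p = 0.234), and LRRFIP1 (-0.90 ± 0.60, adjusted p = 0.556). THRSP is given above, and SPRED3, an ERK inhibitor, had 39.6, 1.41, 14.3 and 26.1 in FFGR 1 to 4 and 0.799, 0, 0 and 3.02 in FFGRD 1 to 4.

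The other 3 groups of the series carry the same treatment labels, and none of their libraries is shared with FFGR or FFGRD. They are the female control (FC), the growth-restricted male (MFGR) and the male control (MC), each with 4 libraries a stage. Fitted in the same way on their own 8 libraries, 50 (0.43%), 393 (3.38%) and 874 (7.53%) genes were called in FC, MFGR and MC. Relative to the mean of all 32 libraries, some libraries of these groups also had negative slopes on genomic span. A final D marks the differentiated stage. The slopes were -0.201 in FC 2, -0.097 in FCD 2, -0.188 in MFGR 1 and -0.118 in MFGRD 1. In the male control they were -0.0188 in MC 4, -0.0971 in MCD 2 and -0.135 in MCD 4. The part of these slopes in the counts and shares of this paragraph was not tested. Of the 310 genes called in FFGR, 285 could be tested in FC, and all 285 had the same direction there, 254 with an unadjusted p below 0.05 and 34 called. In MFGR all 282 tested had the same direction, with 265 and 178 by the same criteria. In MC 277 of 278 did, with 257 and 209. Over all genes tested in both groups the same direction was found for 83.8%, 79.7% and 58.9%. The exception in MC was DCLK3, a doublecortin-like kinase, with log2 fold changes of -3.11 in FFGR and 0.01 in MC, a difference that was not tested. Aligned to the direction in FFGR, the median log2 fold change of these genes was 2.25 in FC, 2.67 in MFGR and 2.80 in MC, beside 3.47, 3.48 and 3.45 for the same genes in FFGR. Since the genes were selected by their size in FFGR, the smaller medians elsewhere are a description and no test.

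**Figure D5:**
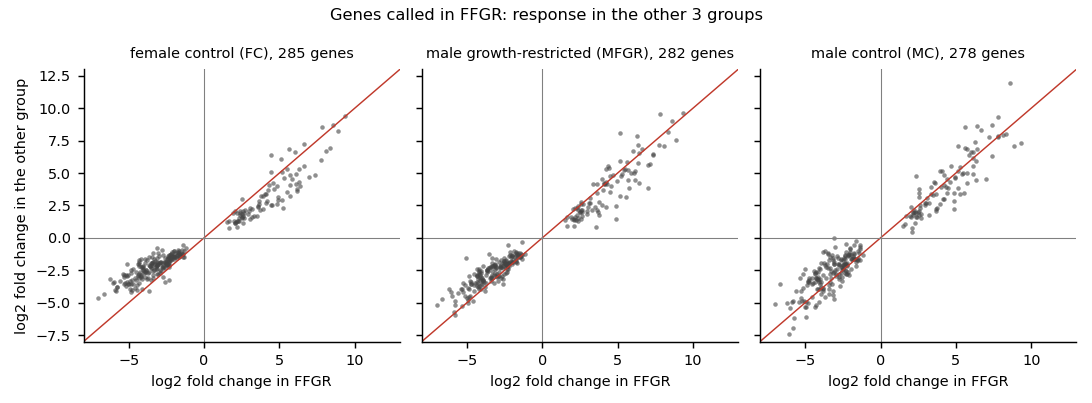
Log2 fold change of the genes called in FFGR (x axis) against the log2 fold change of the same genes in FC, MFGR and MC (y axis; 285, 282 and 278 genes). The red line marks equal change. All points of FC and MFGR, and all but DCLK3 in MC, lie in the quadrants of equal sign.

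A difference between the responses was tested as an interaction on the 16 libraries of both groups compared, for FC and MFGR but not for MC. FFGR against FC gave 0 calls (0%) among 12271 genes, with 40 at an unadjusted p below 0.05. FFGR against MFGR gave 0 (0%) among 12259, with 50. With the slope as covariate the counts were again 0, with 164 and 306 at an unadjusted p below 0.05. All of these numbers are below a share of 0.05 of the genes, which would fall there on average with no difference. The counts of 0 do not show that the groups respond alike, because the intervals were wide. For FABP4 the difference from MFGR was -0.39, with an interval of -4.76 to 3.97 (95%, log2 scale), and from FC -0.11, with an interval of -4.71 to 4.49. For DGAT2 it was 0.95, with an interval of -3.60 to 5.49, from MFGR. For SCD, where FFGR had 3.57 and MFGR 0.83, it was 2.75, with an interval of 0.13 to 5.37. For TGFBI it was -3.08, with an interval of -5.97 to -0.18, from FC, where the log2 fold change was -3.15. These intervals are not adjusted for the number of genes. Those of SCD and TGFBI leave out 0, but neither difference was called. SCD is among the 50 genes and TGFBI among the 40 with an unadjusted p below 0.05 given above.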

How the data were processed

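Total RNA of cultured perirenal preadipocytes was extracted with Trizol and columns and sequenced on a NextSeq500. Per the labels and the methods, the authors discarded reads with a mean Phred score under 34, quantified transcripts of Oar_rambouillet_v1.0 with Salmon and normalized them with DESeq2 over the 32 libraries. The labels name FastQC 0.11.9 and the methods another version of it. The deposited signal is this normalized number of reads per transcript. It is not whole reads, so no count model was fitted. The strandedness is not given in the sources used here, so overlapping and antisense genes cannot be told apart, and values were compared between libraries and not between genes. The columns with the authors' own fold changes and p-values were not used. Approximate reads per library were derived from the commonest small value of a transcript in each library. That value was taken to be a single read, which gave 14.2M to 16.8M.

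Values were summed per gene identifier and filtered (a sum of 10 or higher in 4 or more of the 8 libraries), and limma 3.58.1 with trend (R 4.3.3) was fitted to log2(value + 1) of FFGR and FFGRD without covariates. Calls needed a Benjamini-Hochberg adjusted p below 0.05 over all genes and a fold above 1.5. The code was tested on simulated data. Symbols were matched exactly. The members and gene lists were chosen with earlier results of these data known. Named genes are the 12 largest rises and 12 largest falls with a symbol whose groups do not overlap, the first 2 members and the called members of each list (up to 6), and the 21 genes that the study names as shared. Other genes named in the text were chosen after their values were seen. Alternatives were a pseudocount of 0.1, quantile and same-sum scaling, no filter and a minimum of 50, all 8 groups in 1 fit, the replicate number as block, the slope on genomic span as covariate, library weights, no trend, transcripts in place of gene sums, and leaving out libraries. The slope covariate together with the 3 libraries left out was added after seeing the data. Some genes are not reported here.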

Additional observations from a re-analysis of the deposited data

Results flagged for a closer look

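In 15 of the 218 groups of 4 libraries examined (6.88%), 1 library lay far from the other 3 by Dixon's criterion, where chance gives about 1 in 20. In FFGR 1 ABCD2 had 0.849 and ZBTB16 5.08 normalized reads, in FFGR 3 KLB had 0.939, and in FFGR 4 ACSM1 had 0.759, while each was listed at 0 in the other FFGR libraries, so that 3 of these 4 values are a single read. In FFGR 2 NEXN had 864 against 5687 to 6962 and PDE3B 11.1 against 63.9 to 76.2. In FFGR 3 IDH3A had 540.0 against 657 to 665. In FFGRD 2 CD68 had 36.8 against 62.5 to 64.0, LPL 2362 against 1327 to 1390.2, and SLC2A3 3545 against 980.5 to 1167. In FFGRD 3 FKBP5 had 8999 against 22602 to 25517, LMO7 99.4 against 651 to 734, PDGFRA 935 against 13615 to 20714, and the slope on genomic span was -0.234 against 0.116 to 0.127. In FFGRD 4 DPT had 394 against 53.9 to 69.4. FKBP5, LPL, PDE3B, DPT, ABCD2, ACSM1, KLB and ZBTB16 were called although 1 library stood apart. Their groups did not overlap, so their directions could not reverse without that library.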

How the results depend on the processing

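The direction of all 310 called genes held with the slope on genomic span as covariate. Fits that left out libraries could not reverse it, because FFGR and FFGRD did not overlap in any of the 310. The number of calls changed with the processing. It was 152 with a minimum sum of 50, 1315 with all 8 groups in one fit, 1894 with the slope as covariate, 4138 with library weights, 12 without the 3 libraries, 10 without them and with the covariate, and 98 for transcripts, of 88 genes, 80 of which were called as sums. With 1 library left out it was 33 to 315: 62 and 44 without FFGR 2 and FFGR 3, 74 and 33 without FFGRD 1 and FFGRD 2, 185 and 148 without FFGR 1 and FFGR 4, and 192 without FFGRD 4. Library weights gave 53.5% of calls higher, against 34.2%. The cause of these shifts was not tested. Deviations from the group means correlated at 0.40, -0.49, 0.63 and 0.57 between FFGR and FFGRD libraries of the same replicate number. FFGR 2 and FFGR 3 correlated positively with FFGRD 3 alone (0.75 and 0.63), and these libraries lie apart on the first component. The correlations therefore cannot tell whether libraries of the same number share a fetus. The fit with the replicate block called 182. The difference from the MFGR response had 1 call without the filter, an unnamed gene, and 0 in the other settings, and that from FC had 0 in all. The share of called genes with the same direction in MC was 98.6% to 100% with 1 library left out and 100% for transcripts. The library slope on genomic span, FFGRD versus FFGR, differed by -0.00368 to 0.155 with 1 library left out. None of the 62 named called genes reversed, which was fixed in advance where libraries were left out. Of the 44 named uncalled genes 11 reversed. Their log2 fold changes were, with the slope as covariate, 0.21 for CIDEA, -0.34 for COL1A2, -0.040 for CTNNB1, -0.60 for FN1, 0.014 for HMGCS1 and -0.10 for SLC2A1. Without the 3 libraries they were -0.16 for COL1A2, -0.38 for CTNNB1, -0.75 for FN1, 0.81 for HMGCS1 and -1.37 for SLC2A1, and with the covariate added -0.22 for ADAMTS1, -0.23 for COL1A2, -0.23 for CTNNB1, -0.66 for FN1, 0.64 for HMGCS1 and -0.99 for SLC2A1. Quantile scaling gave 0.21 for COL1A1, 0.025 for HMGCS1 and -0.051 for SLC2A1, same-sum scaling 0.069 for HMGCS1 and 0.065 for SPRED1, library weights 0.98 for COL1A1, 0.27 for SLC2A3 and 1.33 for SPRED1, and transcripts 1.47 for SLC2A3. Leaving out 1 library gave -1.48 to 0.52 for CIDEA, -0.63 to 0.54 for COL1A1, -0.35 to 0.64 for COL1A2, -0.11 to 0.56 for CTNNB1, -0.60 to 0.99 for FN1, -0.62 to 0.37 for HMGCS1, -0.040 to 1.78 for PDGFRA, -0.51 to 1.06 for SLC2A1, -1.76 to 0.65 for SLC2A3 and -0.76 to 0.81 for SPRED1. A value of 10 stood for 7.17 to 13.4 reads. Adipocyte genes such as UCP1 and SLC2A4 did not reach the filter of the main fit. With 4 libraries a group, the wide spread in both groups limits what could be called.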

Other observations

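The genes of the following paragraphs were chosen after their values were seen. Among rising genes outside the lists, GHR, the growth hormone receptor, had 261, 71.2, 127 and 265 in FFGR 1 to 4 and 2378, 1026, 1065 and 851 in FFGRD 1 to 4 (log2 fold change 2.94 ± 0.52, adjusted p = 0.03). Each differentiated library lay above each undifferentiated one. NR5A2, an orphan nuclear receptor, had 2.55, 0, 0 and 0 in FFGR 1 to 4 and 143, 157, 91.5 and 149.6 in FFGRD 1 to 4, at least 34.2-fold higher with FFGR at the floor of 3 reads per library (adjusted p = 0.00864), and CCL19, a chemokine, had 3.67, 5.98, 0.984 and 0 in FFGR 1 to 4 and 15.4, 78, 59 and 96.2 in FFGRD 1 to 4 (log2 fold change 4.21 ± 0.82, adjusted p = 0.0373). Of the genes of these paragraphs NR5A2, CCL19 and ABHD15 passed the filter through FFGRD alone and HSPB7 through FFGR alone, so that they had to differ in that direction. SCP2, a sterol carrier (2.61), ABHD15, a regulator of lipolysis (3.33), and C1QTNF1, a relative of adiponectin (3.60), rose as well (log2 fold changes). Replication and mitosis genes that rose were FEN1 (1.93), TIMELESS (2.08), CDCA2 (2.27), KIF18B (2.37) and CCNF (2.39).

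Other genes outside the lists fell. FAP, the fibroblast activation protein, had 5209, 8039, 13467 and 13576 in FFGR 1 to 4 and 2278, 495, 462 and 1159 in FFGRD 1 to 4 (log2 fold change -3.41 ± 0.59, adjusted p = 0.0286), and CD248, endosialin, 3984, 3330.4, 7582 and 7699.6 in FFGR 1 to 4 and 1466, 1292, 585 and 531 in FFGRD 1 to 4 (log2 fold change -2.59 ± 0.48, adjusted p = 0.0323). The microfibril proteins MFAP2 (-3.83) and MFAP4 (-4.32), the collagen-binding FMOD (-4.97) and COL8A2 (-4.77) fell on the log2 scale, as did the muscle cytoskeleton genes FLNC (-4.82), HSPB7 (-4.86) and SYNC (-5.10).

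FFGR 1 stood apart from the other undifferentiated libraries in cytokine genes. IL6 had 3550.1, 0, 2.85 and 28.5 in FFGR 1 to 4, CXCL8 4541, 2.8, 16 and 34.3, PTGS2, the inducible prostaglandin synthase, 10338, 27.8, 43.2 and 171, and CCL2 10914, 633, 1732 and 1138. The collagenase MMP1 had 722, 1.4, 6.62 and 51.9 and WNT5A 501, 0, 2.84 and 23.7. IL6 was at 0 to 3.02 and CXCL8 at 2.34 to 6 in FFGRD. PTGS2 and CCL2 were not called, and the other 4 genes did not reach the filter.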
